A study of Drosophila melanogaster with 26 samples.

Results

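The genes of the proteasome, the complex that degrades ubiquitinated proteins, were followed through the hypoxic response of *Drosophila* larvae. Members were taken by symbol: *Prosalpha* and *Prosbeta* genes, and *Rpn* or *Rpt* followed by a digit, on probe sets annotated to 1 gene. This gave 40 of the 11982 genes with a probe set of their own. They comprised 12 genes of the core particle (*Prosalpha2* to *Prosalpha7* and *Prosbeta2* to *Prosbeta7*) and 14 of the regulatory particle. Another 4 carry a T after the number (T paralogs) and 10 an R (R paralogs). Each member had 1 probe set. *Prosalpha1* and *Prosalpha1R* share a probe set and were not counted as members. *Prosbeta1*, *Rpt1*, *Rpt6*, *Rpt6R*, *Rpn9* and *Rpn10* were not analysed here.

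The core particle is a barrel of stacked rings. Alpha subunits form the outer rings and gate the entry of substrates, and beta subunits form the inner rings, where proteins are cut. The regulatory particle caps the barrel: its base holds the Rpt ATPases that unfold substrates together with scaffold and ubiquitin-binding subunits, and its lid removes ubiquitin. The proteasome has a direct part in oxygen sensing, since in normoxia the HIF alpha subunit, Sima in the fly, is hydroxylated by Hph, bound by Vhl and degraded. In *Drosophila* several subunits have a second gene used in the male germline, the T paralogs among them.

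Each array holds a pool of at least 10 whole larvae, late in the last instar. They were staged by a partly cleared gut, 10 to 4 h before pupariation. They then spent 6 h in normoxia or under hypoxia (4% O2), all at 25°C. The 4 genotypes were the *w1118* control, *sima* mutants homozygous for *sima07607*, a P-element insertion in the first intron of the HIF alpha gene, *dERR* mutants carrying the alleles *dERR1* and *dERR2* of the estrogen-related receptor gene in trans, and *dERR,sima* double mutants with *sima07607* on both chromosomes beside *dERR1* and *dERR2*. The parents of all mutants carried the balancer TM3,tw-GFP, and homozygous mutants were picked as younger larvae by their lack of GFP. *w1118* in hypoxia had 5 arrays and each of the other 7 groups had 3, 26 in all. The sex of the larvae is not given in the sources used here. In whole animals, fewer cells of a type and less RNA per cell cannot be told apart.

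Values are log2 of the deposited intensities. A probe set was called when limma gave a change of at least 1.5-fold with a Benjamini-Hochberg adjusted p under 0.01 over all 18769 probe sets tested. The array medians ranged from 5.16 to 5.53. In *w1118* in hypoxia, replicates 2 and 3 differed by 0.16 per probe set on average and replicates 4 and 5 by 0.25, and the other pairs by 0.35 to 0.45. The fit counts all 5 as independent, and p-values measure only the spread between pools, whose number limits the precision. The *sima* transcript was below *w1118* in every mutant group that carries *sima07607* (changes from -2.63 to -1.91). The *ERR* probe set was below *w1118* at the threshold only in *dERR* in hypoxia (-0.89, adjusted p = 1.07e-04, limma), and was -0.33 in normoxia (adjusted p = 0.14). In *dERR,sima* it gave 0.06 in normoxia (adjusted p = 0.817) and -0.42 in hypoxia (adjusted p = 0.0292), so this probe set does not show a loss of the transcript in the double mutant. The fat body list, 5 of 8 markers found, lay between 13.01 and 13.38 on all 26 arrays.

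None of the 40 proteasome genes was called in any of the 13 comparisons: 0 of 520 results passed in limma, 8 had an adjusted p under 0.05, the smallest 0.0271, and 81 an unadjusted p under 0.05. Of all probe sets, 0.107% to 6.16% were called in a comparison, and 9.17% to 31.9% had an unadjusted p under 0.05. The 8 were 1 in *sima* and 7 in *dERR* against *w1118* in normoxia, where 3.63% and 9.17% of all probe sets had one. The probe set that *Prosalpha1* and *Prosalpha1R* share, not a member, was called lower than *w1118* in *sima* and *dERR*, in normoxia and hypoxia. Among the members, the core and regulatory genes moved as a set from array to array. They were high or low together on the same arrays, and lowest on replicate 2 of *dERR* in normoxia, while the T and R paralogs were lowest on other arrays. Genes of the core and regulatory particles all passed the filter on low values, as did 3 of the 4 T paralogs and 8 of the 10 R paralogs (all but *Prosalpha3T*, *Prosbeta4R2* and *Rpn13R*). By the Release 6 gene table the members are spread over 5 chromosome arms, with 8 on 2L, 9 on 2R, 6 on 3L, 12 on 3R and 5 on X.

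**Figure D1:**
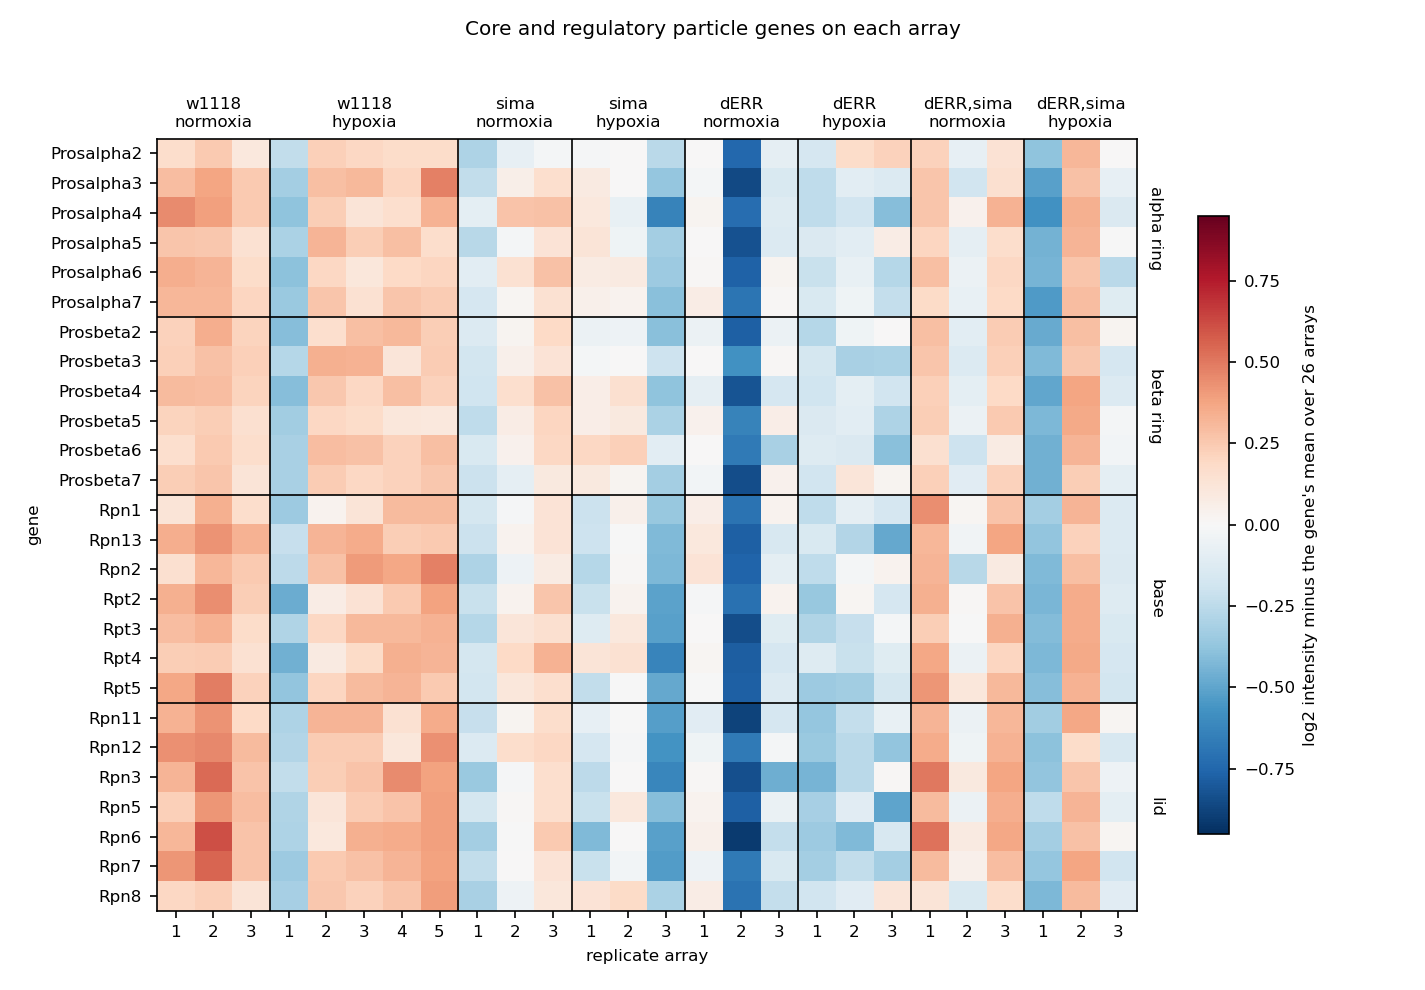
Heat map of the 26 core and regulatory genes (rows, grouped by ring, base and lid) on 26 arrays (columns, by group and replicate); colour is the log2 intensity minus the gene's own mean over all arrays. Whole columns share a colour: replicate 2 of *dERR* in normoxia averaged -0.76, and all 3 *w1118* arrays in normoxia lay above 0 for all 26 genes.

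The shared movement was larger than the differences between members. The SD of a core or regulatory gene over the 26 arrays had a median of 0.30 (0.24 to 0.37), against 0.23 for all probe sets. Subtracting the mean of the other 25 genes on the same array brought the median SD to 0.098 (0.064 to 0.15), whereas subtracting the array's own median left it at 0.31. *Rpt3*, an ATPase of the base, followed the others most closely (0.064 left). *Rpn6* and *Rpn3*, scaffold subunits of the lid, had the most left over (0.15 each).

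All 26 genes lay above their own mean on 10 arrays: the 3 of *w1118* in normoxia, replicates 2 to 5 of *w1118* in hypoxia, replicates 1 and 3 of *dERR,sima* in normoxia, and replicate 2 of *dERR,sima* in hypoxia. All 26 lay below it on 6 arrays. Beside *dERR* normoxia replicate 2 (-0.76), these were *dERR,sima* hypoxia replicate 1 (-0.42), *sima* hypoxia replicate 3 (-0.42), *w1118* hypoxia replicate 1 (-0.32), *dERR* hypoxia replicate 1 (-0.24) and *sima* normoxia replicate 1 (-0.21). Such an array occurred once in each of 6 groups.

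The mean of the muscle list, of which 6 of 10 genes were found, differed between these arrays too. It ran from 9.79 (*sima* normoxia replicate 1) to 11.24 (*dERR* normoxia replicate 2) on the 6 arrays on which all proteasome genes were low. On the 10 arrays on which all were high it ran from 8.76 to 9.53. The 2 ranges did not meet, whereas the means of the midgut, testis and fat body lists, also computed, overlapped between the same arrays. The muscle mean was also above 10 on arrays of neither kind, such as *dERR* normoxia replicates 1 and 3 (10.55 and 10.39). Its part in the proteasome values was not tested.

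In control larvae the core and regulatory genes overlapped between normoxia and hypoxia. *Prosbeta5*, which carries the chymotrypsin-like site, read 11.90, 11.93 and 11.85 in normoxia and 11.36, 11.89, 11.87, 11.80 and 11.79 in hypoxia. Replicate 1 was lowest, replicates 2 and 3 fell within the normoxia range, and replicates 4 and 5 were just below it. Its change was -0.15 (SE 0.17, adjusted p = 0.583, limma). *Prosbeta2*, with the trypsin-like site, gave -0.14 (SE 0.19, adjusted p = 0.628). The lowest and highest changes were those of *Prosalpha4*, an alpha ring subunit (-0.27, SE 0.20), and of *Rpn2*, a base scaffold (0.01, SE 0.20).

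Over the core genes the median change in *w1118* was -0.13 and over the regulatory genes -0.16, beside 0.06 for all probe sets. Of the 26 genes 0 were called, where 5.15% of all probe sets were, and 0 had an unadjusted p under 0.05, where 30.1% did. The 95% intervals of the single genes ran from -0.69 to 0.43, so that a change of up to 1.62-fold down or 1.34-fold up lay inside them. Without replicate 1 of hypoxia the medians were -0.00080 (core) and -0.05 (regulatory). The lowest with 1 array left out were -0.17 (core, without hypoxia replicate 5) and -0.20 (regulatory, without normoxia replicate 3). Centring each array on its own median takes away a shift of -0.15 in this comparison. The medians were then 0.02 and -0.01, so the core median changed sign. The array medians were lowest on *w1118* hypoxia replicates 4 and 5 (5.16 and 5.24), as were the means of the testis markers (6.34 and 6.75). Whether the shift taken away applies to the proteasome genes was not tested.

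**Figure D2:**
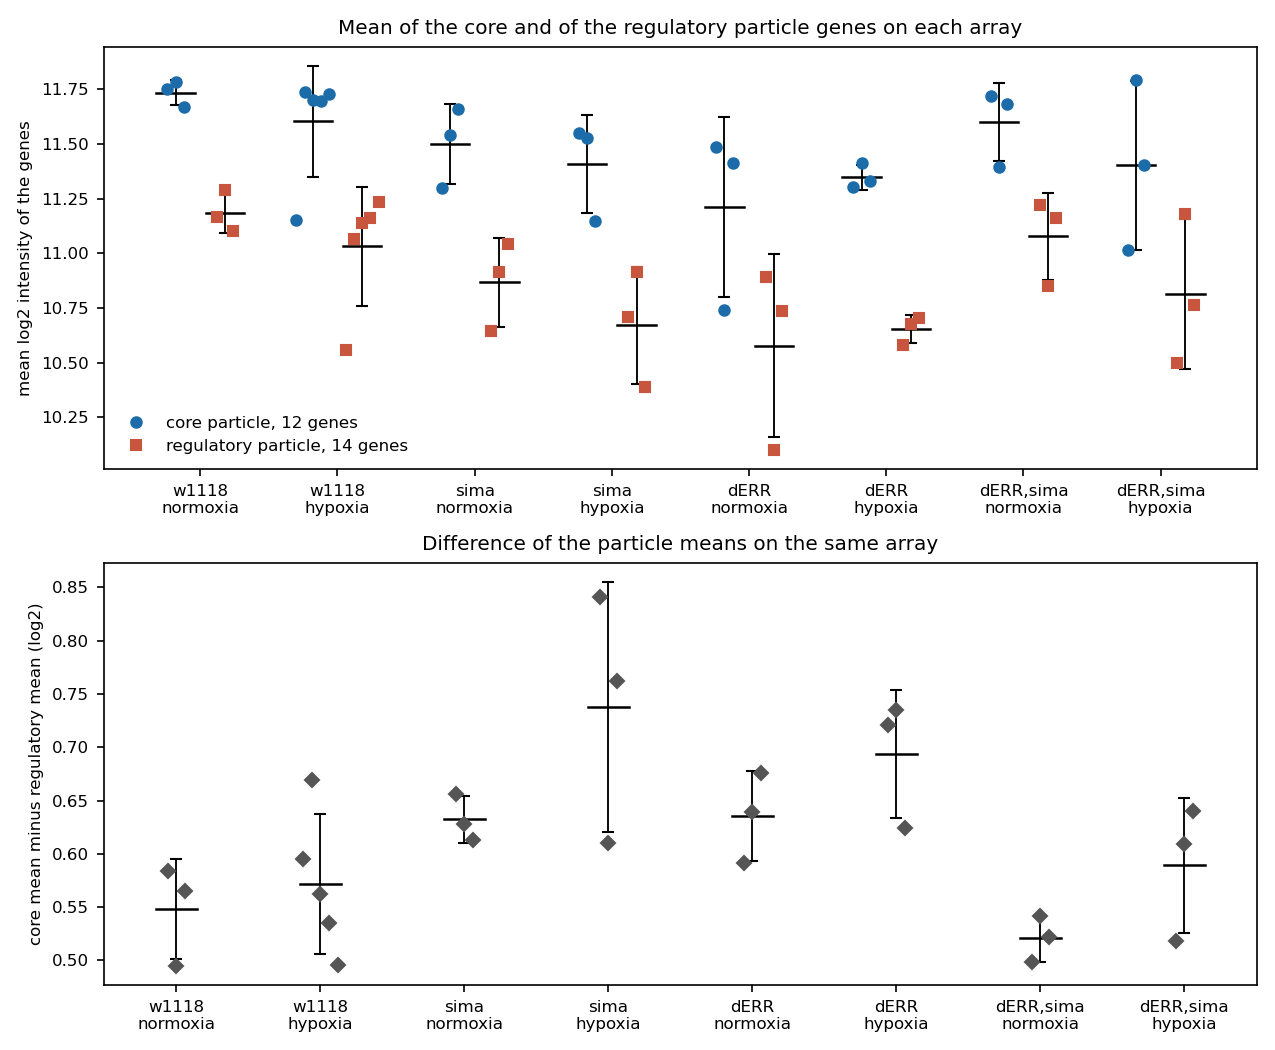
Top: mean log2 intensity of the 12 core genes (circles) and the 14 regulatory genes (squares) on each array, by group; bottom: core mean minus regulatory mean on the same array. Bars are group means and SDs; the lowest points are *dERR* normoxia replicate 2, at 10.74 and 10.10, and the difference stays between 0.49 and 0.84.

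In the mutants, too, hypoxia brought no call among the 26 genes. The medians for core and regulatory genes were -0.08 and -0.21 in *sima*, 0.15 and 0.06 in *dERR*, and -0.19 and -0.28 in *dERR,sima*. Single arrays turned or reduced these medians: they were -0.07 and -0.19 in *dERR* without normoxia replicate 2, 0.05 and -0.06 in *sima* without hypoxia replicate 3, and 0.01 and -0.11 in *dERR,sima* without hypoxia replicate 1. Other arrays moved them the other way. They were 0.29 and 0.22 in *dERR* without normoxia replicate 1, and -0.38 and -0.47 in *dERR,sima* without hypoxia replicate 2. In *sima* the core median was -0.18 without normoxia replicate 1, and the regulatory median -0.33 without hypoxia replicate 2. The shares of all probe sets called in these comparisons were 3.6%, 0.389% and 4.72%. Unadjusted, 0 of the 26 genes passed 0.05 in each, against 19.2%, 14.6% and 20.8% of all probe sets. In *dERR* the largest change was that of *Prosalpha2*, an alpha ring subunit: 11.55, 10.80 and 11.46 in normoxia and 11.39, 11.72 and 11.77 in hypoxia. Its normoxic replicate 2 is the low array, and the other values overlap (0.36, SE 0.18, adjusted p = 0.388). In *dERR,sima*, *Rpn3* gave -0.38 (SE 0.22, adjusted p = 0.366), with 11.19, 10.78 and 11.06 in normoxia and 10.31, 10.95 and 10.64 in hypoxia. In *sima* the extremes were *Prosalpha4* (-0.35, SE 0.23) and *Rpn8* (0.09), the lid partner of the deubiquitinase Rpn11.

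The difference between a mutant's hypoxic change and that of *w1118* was tested as an interaction. For *sima* the medians were 0.05 (core) and -0.05 (regulatory), for *dERR* 0.29 and 0.24, and for *dERR,sima* -0.06 and -0.12. Those of all probe sets were -0.06, -0.02 and -0.08. None of the 26 genes was called, where 0.314%, 0.107% and 0.48% of all probe sets were, and 0 had an unadjusted p under 0.05, where 14.6%, 9.17% and 13.9% did. The *dERR* interaction was positive for all 26 genes, from 0.02 (*Prosbeta3*) to 0.42 (*Prosalpha2*), and 25 of them stayed positive with arrays centred. That of *dERR,sima* was negative for all 26, from -0.22 (*Rpn3*) to -0.01 (*Rpt2*). Without *dERR* normoxia replicate 2 the *dERR* medians were 0.04 and 0.0066, and without its replicate 1 they were 0.44 and 0.40. The *sima* core median became -0.09 with arrays centred. Leaving out 1 array at a time took the *sima* medians from -0.06 to 0.19 (core) and from -0.17 to 0.10 (regulatory), the lowest without *w1118* hypoxia replicate 1 and the highest without *sima* hypoxia replicate 3. It took the *dERR,sima* medians from -0.26 to 0.15 and from -0.30 to 0.04, the lowest without *dERR,sima* hypoxia replicate 2 and the highest without its replicate 1.

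The comparison of *dERR* with *w1118* in normoxia gave the lowest core and regulatory medians of the 13 comparisons. *Rpn3* had the largest difference: 11.01, 11.23 and 10.96 in *w1118* and 10.70, 9.85 and 10.22 in *dERR*. Every *dERR* array was below every *w1118* array, and replicate 2 was the lowest of all 26 arrays. The difference was -0.81 (SE 0.22, adjusted p = 0.0271, limma). *Rpn6*, also of the lid, read 11.41, 11.71 and 11.36 in *w1118* and 11.14, 10.18 and 10.86 in *dERR* (-0.76, SE 0.23, adjusted p = 0.0403). *Rpn7* read 11.07, 11.21 and 10.93 against 10.61, 9.98 and 10.51 (-0.70, SE 0.20, adjusted p = 0.0329). In both genes, as in *Rpn3*, the groups did not overlap.

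All 26 genes were lower in *dERR*. The median was -0.52 over the core genes and -0.62 over the regulatory genes, beside 0.02 for all probe sets. No gene met the rule for a call, which 2.29% of all probe sets did, although 24 of 26 had an unadjusted p under 0.05, as did 26.9% of all probe sets. The groups did not overlap and *dERR* was lower for 26 of 26 genes, a pattern seen in 20.8% of all probe sets. An adjusted p under 0.05 was reached by 7 genes, where 9.17% of all probe sets reached it. All 7 belong to the regulatory particle: the lid genes *Rpn3*, *Rpn6*, *Rpn7*, *Rpn11*, which encodes the deubiquitinase (-0.70, adjusted p = 0.0437), and *Rpn12* (-0.64, adjusted p = 0.042), and the base genes *Rpt5*, an ATPase (-0.66, adjusted p = 0.0488), and *Rpn13*, a ubiquitin receptor (-0.64, adjusted p = 0.0443). Among the core genes the smallest adjusted p was 0.0686, for *Prosalpha3* (-0.65), and the catalytic subunits gave -0.55 (*Prosbeta2*, SE 0.21) and -0.38 (*Prosbeta5*, SE 0.19). Whether the regulatory genes differed more than the core genes was not tested.

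These values rest in part on replicate 2 of *dERR*. The core mean was 11.48 on replicate 1, 10.74 on replicate 2 and 11.41 on replicate 3, against 11.67 to 11.78 in *w1118*. Without replicate 2 the medians were -0.27 (core) and -0.36 (regulatory) and 0 genes had an adjusted p under 0.05. The count was 13 without *dERR* normoxia replicate 1, when *Rpn3* was also called (-1.03, adjusted p = 0.00856). It was 0 without any 1 of the 3 *w1118* normoxia arrays, 4 without *dERR* normoxia replicate 3, and 2 to 4 without *sima* normoxia replicate 2, *dERR,sima* normoxia replicate 3, *sima* hypoxia replicate 1, *dERR* hypoxia replicate 2 or *dERR,sima* hypoxia replicate 3, which enter only through the pooled spread. With arrays centred on their medians, which takes away a shift of -0.10, the medians were -0.42 and -0.51, and 0 genes had an adjusted p under 0.05 (smallest 0.0844).

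In the same comparison the muscle list had a median of 1.60, with 2 of 6 genes called higher (*Mlc2* and *bt*), and the midgut list one of 0.91, with 2 of 8 called higher (*thetaTry* and *Mal-A1*). Of all probe sets, 2.29% were called there in either direction. On the *dERR* normoxia arrays the muscle mean was 10.39 to 11.24. The part of these tissues in the proteasome values was not tested.

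In hypoxia the median difference between *dERR* and *w1118* was -0.25 over the core and -0.41 over the regulatory genes, beside 0.01 for all probe sets. None of the 26 genes was called, where 6.16% of all probe sets were, and 9 had an unadjusted p under 0.05, where 31.9% did. *Rpn13* had the largest difference (-0.49, adjusted p = 0.0557). It read 10.74, 10.61 and 10.40 in *dERR* and 10.67, 11.21, 11.24, 11.12 and 11.14 in *w1118*. Only replicate 1 of *w1118* lay among the *dERR* values. The smallest difference was that of *Prosalpha2* (-0.03). For none of the 26 genes did *dERR* lie wholly below *w1118*, whereas 11.2% of all probe sets did. Without that *w1118* array the medians were -0.36 and -0.53. The highest with 1 array left out were -0.21 (core, without *w1118* hypoxia replicate 2) and -0.33 (regulatory, without *dERR* hypoxia replicate 1). The muscle list had a median of 1.28 here and the midgut list of 0.99, with 1 of 6 and 4 of 8 genes called higher.

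In *sima* mutants in normoxia all 26 genes were lower than in *w1118*, from -0.45 (*Rpn7*) to -0.09 (*Rpt4*, a base ATPase), with a median of -0.24 (core) and -0.32 (regulatory) beside 0.07 for all probe sets. None was called, where 1.47% of all probe sets were, and only *Rpn7* had an unadjusted p under 0.05 (-0.45, SE 0.20, adjusted p = 0.185), where 22.7% did. The *sima* arrays were wholly below *w1118* for 18 of 26 genes, as for 16.4% of all probe sets. *Rpn7* read 10.42, 10.66 and 10.79 in *sima* against 11.07, 11.21 and 10.93 in *w1118*. Centring the arrays, which takes away a shift of -0.15, left medians of -0.09 and -0.17.

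In hypoxia the *sima* medians against *w1118* were -0.21 and -0.38, from *Rpn3* (-0.51, adjusted p = 0.105) to *Prosbeta6* (-0.05), a beta ring subunit. None of the 26 genes was called, where 4.56% of all probe sets were. Unadjusted, 6 passed 0.05, all regulatory, where 23.6% of all probe sets did. Without *sima* hypoxia replicate 3, the lowest of its group, the medians were -0.07 and -0.22. The lowest with 1 array left out were -0.31 (core, without *w1118* hypoxia replicate 1) and -0.49 (regulatory, without *sima* hypoxia replicate 2).

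For *dERR,sima* double mutants against *w1118* in normoxia the medians were -0.13 (core) and -0.12 (regulatory). The 95% intervals of the single genes ran from -0.69 to 0.46. *Rpn3* read 11.19, 10.78 and 11.06 in the double mutant, a difference of -0.05 (SE 0.22, 95% interval -0.51 to 0.41, adjusted p = 0.905, limma). None of the 26 genes was called, where 0.895% of all probe sets were, and 0 had an unadjusted p under 0.05, where 20.7% did. The arrays of the double mutant were wholly below *w1118* for 2 of 26 genes, against 17.4% of all probe sets. Centring the arrays turned both medians to 0.02 and 0.03, and without *dERR,sima* normoxia replicate 2 the regulatory median was 0.0041, so no direction is given. The extremes were *Prosalpha3* (-0.23) and *Rpn1* (0.03), a base scaffold. In hypoxia the medians were -0.21 and -0.23, with 0 called (6.05% of all probe sets) and 0 unadjusted p under 0.05 (27% of all probe sets). The changes ran from *Rpn2* (-0.34) to *Prosbeta5* (-0.08). The core mean ran from 11.02 to 11.79 over these 3 arrays, a range that takes in every array of the other groups except *dERR* normoxia replicate 2. Without replicate 1 the medians were -0.00040 and -0.07, and without replicate 2 they were -0.40 and -0.42.

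The comparison of double mutants with *dERR* mutants was added after the values were seen. In normoxia all 26 genes were higher in the double mutant, by 0.29 to 0.75 with a median of 0.44. None was called (0.245% of all probe sets) and 13 had an unadjusted p under 0.05 (15.3% of all probe sets). Adjusted p-values ran from 0.0916 to 0.592. In hypoxia the median was 0.11 (-0.10 to 0.31), with 0 called (1.94% of all probe sets) and 0 unadjusted p under 0.05 (15.4%). *dERR* normoxia replicate 2 enters the first of these, and a fit without it was not run. Relative to each gene's own mean, the 26 genes averaged 0.01, -0.76 and -0.11 on *dERR* normoxia replicates 1 to 3. On those of *dERR,sima* they averaged 0.29, -0.05 and 0.25, so the 2 groups of arrays overlapped.

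The catalytic subunits were followed through the same comparisons. Against *w1118* in normoxia *Prosbeta2* gave -0.23 in *sima* and -0.12 in *dERR,sima* (SE 0.21 each), beside -0.55 in *dERR*. *Prosbeta5* gave -0.19 and -0.06 (SE 0.19 each), beside -0.38. In hypoxia the differences of *Prosbeta2* were -0.29 (*sima*), -0.22 (*dERR*) and -0.17 (*dERR,sima*), and those of *Prosbeta5* -0.10, -0.23 and -0.08. Apart from *Prosbeta2* in *dERR* in normoxia, each was less than 2 SE from 0. All these comparisons with *w1118* in normoxia share its 3 arrays, and those in hypoxia its 5.

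**Figure D3:**
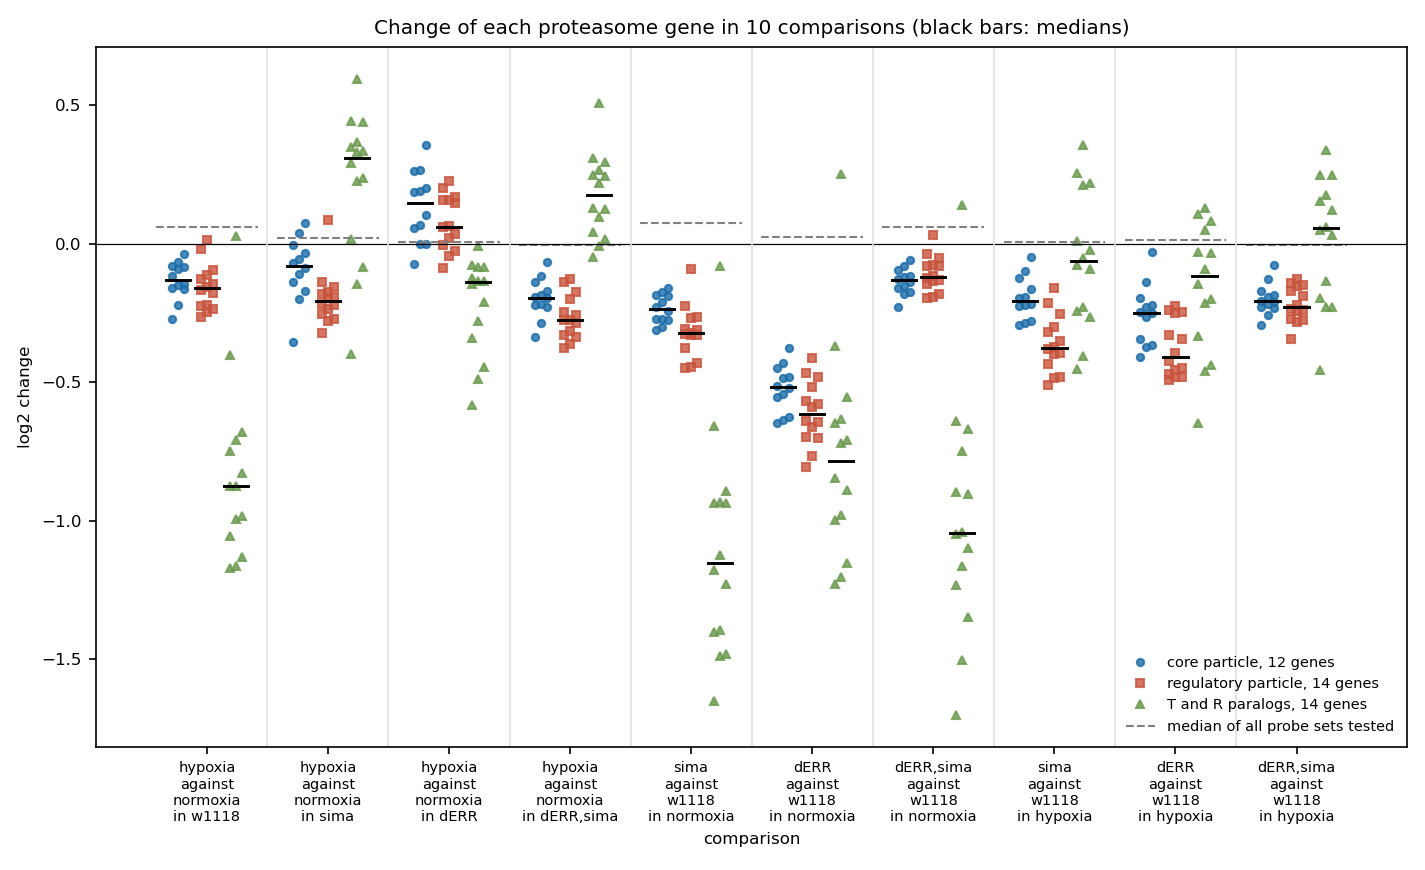
Log2 change of each proteasome gene (points) in 10 comparisons, by class, with class medians (black bars) and the median of all 18769 probe sets tested (dashed). Core and regulatory genes lie in narrow bands, lowest for *dERR* against *w1118* in normoxia (medians -0.52 and -0.62, or -0.27 and -0.36 without *dERR* normoxia replicate 2), and the T and R paralogs lie lower and wider in the comparisons that use *w1118* in normoxia.

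The 2 particles kept step closely. The core mean minus the regulatory mean is a difference between probe sets, so only its change between arrays can be read. It ran from 0.49 to 0.58 in *w1118* in normoxia and 0.50 to 0.67 in hypoxia. In *sima* it was 0.61 to 0.66 in normoxia and 0.61 to 0.84 in hypoxia, and in *dERR* 0.59 to 0.68 and 0.62 to 0.73. *dERR,sima* lay at 0.50 to 0.54 and 0.52 to 0.64. All *sima* and *dERR* normoxia arrays were above all 3 of *w1118* and of *dERR,sima*, the closest being *dERR* replicate 1 at 0.59 and *w1118* replicate 1 at 0.58. In hypoxia the *w1118* range overlapped those of all 3 mutants. Over 26 arrays the difference moved by 0.35, against 1.05 for the core mean and 1.19 for the regulatory mean. Within the regulatory particle the lid mean moved by 1.24 and the base mean by 1.13.

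The order of the 8 groups by core mean was *w1118* in normoxia (11.74 ± 0.06, SD, n = 3), *w1118* in hypoxia (11.60 ± 0.25, n = 5), *dERR,sima* in normoxia (11.60 ± 0.18, n = 3), *sima* in normoxia (11.50 ± 0.18), *sima* in hypoxia (11.41 ± 0.22), *dERR,sima* in hypoxia (11.40 ± 0.39), *dERR* in hypoxia (11.35 ± 0.06) and *dERR* in normoxia (11.21 ± 0.41), whose place rests on replicate 2 (10.74, beside 11.48 and 11.41). Each step between neighbours was smaller than the SD of at least 1 of the 2 groups. The spread itself differed: the median SD of the 26 genes was 0.079 in *w1118* in normoxia and 0.42 in *dERR* in normoxia, against 0.11 and 0.18 for all probe sets.

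The T paralogs, used in the male germline, and the R paralogs were high and low with the testis markers. *Prosalpha4T1* read 6.50, 6.92 and 6.86 in *w1118* in normoxia. In hypoxia it read 5.72, 6.80, 6.61, 4.50 and 4.51 on replicates 1 to 5, so that replicates 2 and 3 overlapped normoxia and replicates 4 and 5 were lowest. The testis list, 16 of 17 genes found, had means of 8.55 to 8.94 in normoxia and of 7.77, 8.84, 8.70, 6.34 and 6.75 on the same 5 arrays. The change of *Prosalpha4T1* was -1.13 (SE 0.44, adjusted p = 0.0953, limma). The others gave -1.05 (*Prosalpha6T*, SE 0.39), -0.88 (*Prosalpha3T*, SE 0.38) and -0.40 (*Prosalpha4T2*, SE 0.28). Over the 14 T and R paralogs the median was -0.88, with 0 called (5.15% of all probe sets) and 8 unadjusted p under 0.05 (30.1% of all probe sets). The median SD of these genes within *w1118* in hypoxia was 0.92, against 0.21 for all probe sets.

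**Figure D4:**
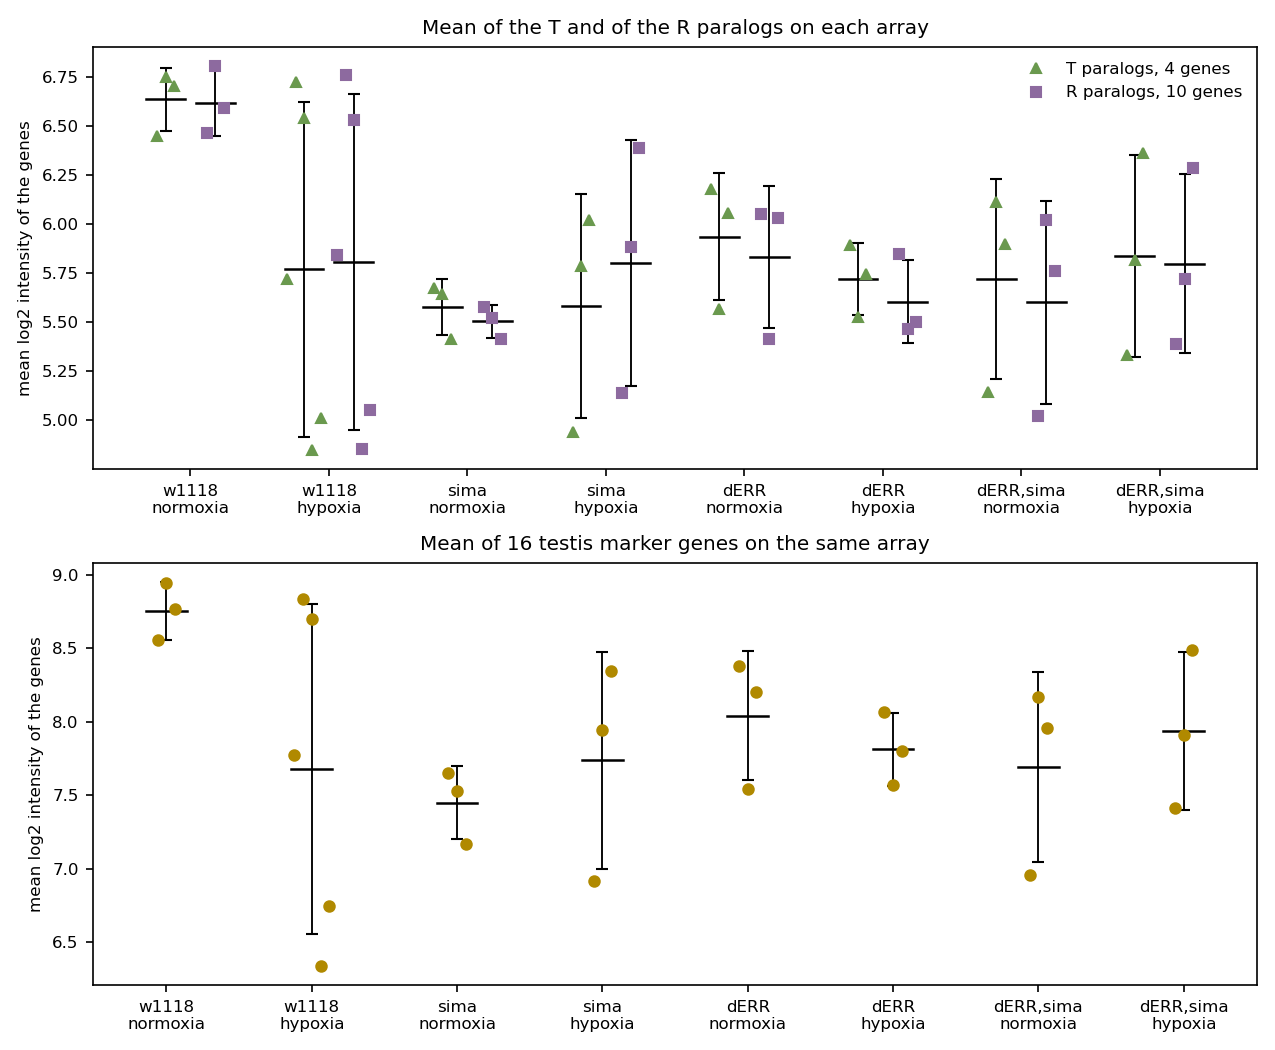
Top: mean log2 intensity of the 4 T paralogs (triangles) and the 10 R paralogs (squares) on each array; bottom: mean of 16 testis marker genes on the same arrays, with bars for group means and SDs. Replicate 4 of *w1118* in hypoxia is lowest in both panels, with a testis mean of 6.34, and the *w1118* normoxia arrays are among the highest.

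In normoxia most paralogs were lower in the mutants than in *w1118*. *Rpt4R*, a relative of the base ATPase gene *Rpt4*, differed most in *sima*: 5.76, 5.42 and 5.10 against 6.79, 7.41 and 7.02 in *w1118* (-1.65, SE 0.45, adjusted p = 0.045, limma). It was the 1 member of the 40 with an adjusted p under 0.05 in this comparison, where 3.63% of all probe sets had one. That p rose above 0.05 in 15 of 26 fits with 1 array left out, each of the 6 arrays compared among them. *Prosalpha4T1* gave -1.23 (SE 0.49), *Prosalpha6T* -1.18 (SE 0.44), *Prosalpha3T* -0.93 (SE 0.42) and *Prosalpha4T2* -0.89 (SE 0.32).

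For 13 of the 14 paralogs the *sima* arrays in normoxia lay wholly below *w1118* (16.4% of all probe sets), and 13 had an unadjusted p under 0.05 (22.7%). The exception was *Prosbeta4R2*, the dimmest member (-0.08). A fit to these 6 arrays alone, whose spread is not pooled with the other groups, called all 13 (10.3% of all probe sets), with changes from -1.65 to -0.66. The testis list moved with them: its mean was 7.17 to 7.65 in *sima* and 8.55 to 8.94 in *w1118*, and its median change was -1.37. With the testis mean as a covariate the changes in *sima* were 0.05 (*Prosalpha3T*), -0.02 (*Prosalpha4T1*), -0.14 (*Prosalpha4T2*), -0.10 (*Prosalpha6T*) and -0.56 (*Rpt4R*), none called. The part of testis content in these differences was not tested apart from genotype.

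In *dERR* in normoxia the paralogs had a median of -0.78, and in *dERR,sima* of -1.05, each with 13 of 14 wholly below *w1118*, where 20.8% and 17.4% of all probe sets were. *Prosbeta4R2* gave 0.25 and 0.14. The T paralogs *Prosalpha4T1* and *Prosalpha6T* gave -1.15 (SE 0.49) and -0.65 (SE 0.44) in *dERR*, and -1.35 (SE 0.49) and -0.90 (SE 0.44) in *dERR,sima*. *Prosalpha3T* and *Prosalpha4T2* gave -0.63 (SE 0.42) and -0.37 (SE 0.32), and -0.75 (SE 0.42) and -0.67 (SE 0.32). *Prosbeta5R2*, a relative of *Prosbeta5*, was lowest in both (-1.23 and -1.70). The testis list lay at 7.54 to 8.38 in *dERR* and at 6.96 to 8.17 in *dERR,sima*, and its median changes were -0.70 and -1.12. These 3 comparisons share the *w1118* normoxia arrays.

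Against *w1118* in hypoxia, with its wide spread, the paralog medians were -0.06 (*sima*), -0.12 (*dERR*) and 0.06 (*dERR,sima*). In each, 0 had an unadjusted p under 0.05, where 23.6%, 31.9% and 27% of all probe sets did. Within the mutants, hypoxia gave 0.31 in *sima*, -0.14 in *dERR* and 0.18 in *dERR,sima*, again with 0, against 19.2%, 14.6% and 20.8%. Among these 6 comparisons the T paralogs ran from -0.45 (*Prosalpha3T*, *sima* against *w1118*) to 0.34 (*Prosalpha6T*, hypoxia in *sima*). The 14 paralogs had median interactions of 1.14 (*sima*), 0.59 (*dERR*) and 1.10 (*dERR,sima*), with 0 called (0.314%, 0.107% and 0.48% of all probe sets) and 5, 0 and 2 unadjusted p under 0.05 (14.6%, 9.17% and 13.9%). The testis list had medians of 1.45, 0.87 and 1.44 in the same 3 contrasts.

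The lists of genes around the proteasome were small, and between 0.107% and 6.16% of all probe sets were called in a comparison, so a count of 0 says little about them. Of 11 partner genes (assembly, shuttle and unfolding factors such as *Pomp* and *TER94*), 5 genes around CncC, a transcription factor of proteasome genes, and 9 COP9 signalosome genes, a relative of the lid, 0 were called in any of 13 comparisons. In *dERR* against *w1118* in normoxia the medians of these lists were -0.39, -0.19 and -0.24. Of 10 ubiquitin genes, *Ubc6*, a ubiquitin-conjugating enzyme, rose in hypoxia in *w1118* (0.76, SE 0.09, adjusted p = 5.33e-06), *sima* (0.64, SE 0.10) and *dERR,sima* (0.78, SE 0.10). In *dERR* it gave 0.29 (SE 0.10, adjusted p = 0.145), and its interaction was -0.47 (adjusted p = 0.149).

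*Ubc6* read 9.12 to 9.20 in *w1118* in normoxia and 9.78 to 10.01 in hypoxia, without overlap. *Ubi-p5E*, a polyubiquitin gene, fell in *sima* in hypoxia (-1.05, adjusted p = 0.00397) and was below *w1118* there (-0.92, adjusted p = 0.00355). *ben*, another conjugating enzyme, was below *w1118* in *dERR,sima* in hypoxia (-0.67, adjusted p = 0.00171).

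Of 5 genes of the route that leads HIF alpha to the proteasome, *Hph*, the prolyl hydroxylase, rose in *w1118* from 8.68 ± 0.21 (SD, n = 3) to 11.61 ± 0.30 (n = 5), by 2.93 (SE 0.17, adjusted p = 1.34e-09). In *dERR* it rose by 2.26 (SE 0.19). It gave 0.50 in *sima* and 0.14 in *dERR,sima*, and the interactions were -2.43 (adjusted p = 1.53e-05) and -2.79 (adjusted p = 4.41e-06). *Vhl*, the subunit that recognises the hydroxylated protein, rose in *w1118* by 1.09 (adjusted p = 1.07e-05, limma). It was not called in hypoxia in *sima*, *dERR* or *dERR,sima*, and its interaction was called, as negative, for *sima* and *dERR,sima*. Against *w1118* in hypoxia *Hph* was called lower in *sima*, *dERR* and *dERR,sima*, and *Vhl* in *sima* and *dERR,sima*. For hypoxia in *w1118* the core and regulatory genes of the proteasome, which acts at the end of this route, gave medians of -0.13 and -0.16.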

How the data were processed

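Per the labels and the methods, the authors hybridised 26 Affymetrix Drosophila Genome 2.0 arrays and normalised them with RMA, whose version is not given in the sources used here. Their deposited table holds linear intensities, with array medians of 35.4 to 45.4, and all its columns were used. Here log2 of the intensities was fitted with limma 3.58.1 in R 4.3.3, as 1 model of 8 groups without covariates (18 residual degrees of freedom), after 183 of 18952 probe sets, controls, were left out. The study used SAM, which was not run. Calls needed a change of 1.5-fold or more and an adjusted p (Benjamini-Hochberg) under 0.01. Fits were tested on simulated data. Members were chosen by symbol, 1 probe set per gene, and those named are the called, the largest rise and fall of a comparison, T paralogs and catalytic subunits, plus those with an adjusted p under 0.05. The members and lists were chosen with earlier results of these data known. The low-value filter, used only as an alternative, asked for a highest group mean above 5.96 (log2). The alternatives were array centring, other call rules and fits, a variance trend, merged or dropped *w1118* hypoxia replicates, a replicate block, a testis covariate and each array left out. Replicate numbers did not pair the samples. Names were matched to the Release 6 RefSeq gene table.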

Additional observations from a re-analysis of the deposited data

Results flagged for a closer look

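In *w1118* larvae in hypoxia, the group of 5 arrays, 17 of 44 values tested had 1 array far from the rest (a gap over 0.71 of the group's range), each time replicate 1 as the lowest. Chance gives about 1 in 20 such cases, and the genes are not independent, since they move together. Among the alpha ring genes replicate 1 read 11.315 in *Prosalpha2*, 11.324 in *Prosalpha5*, 11.037 in *Prosalpha6* and 10.826 in *Prosalpha7*. Among the beta ring genes, which include the catalytic subunits, it read 10.997 in *Prosbeta2*, 11.066 in *Prosbeta4*, 11.363 in *Prosbeta5*, 11.049 in *Prosbeta6* and 11.553 in *Prosbeta7*. Among the regulatory genes it read 10.669 in *Rpn13*, 10.853 in *Rpn2*, 10.686 in *Rpt3*, 10.541 in *Rpt5*, 10.312 in *Rpn7* and 10.422 in *Rpn8*. The core mean on this array was 11.152 and the regulatory mean 10.557.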

How the results depend on the processing

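No call among the 40 genes was made under array centring, the low-value filter, a variance trend or merged *w1118* hypoxia replicates. In *sima* against *w1118* in normoxia 13 genes were called from the 6 arrays alone and 1 (*Rpt4R*, adjusted p = 0.00649, limma) with *w1118* hypoxia replicates 1 to 3 only. With an adjusted p under 0.05 and no fold minimum, 1 gene passed in that comparison and 7 in *dERR* against *w1118* in normoxia. Under this looser rule, leaving out 1 array at a time gave 0 to 1 genes in *sima* and 0 to 13 in *dERR*. Under the main rule it gave 0 to 1 calls in *dERR* against *w1118* in normoxia. The testis covariate gave 1 call each in *dERR* in normoxia (*Rpt4R*), *dERR* in hypoxia (*Prosbeta5R2*) and *dERR,sima* in hypoxia (*Rpt4R*), all against *w1118*, and turned 2 values: *Prosalpha4T2* in *w1118* in hypoxia to 0.22 and *Prosalpha3T* in *sima* in normoxia to 0.053. The cause was not tested. The rule at an adjusted p under 0.05, with centring and with arrays left out, was added after seeing the data. Averaging probe sets per gene was not run, as every member has 1.

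Same-numbered replicates did not deviate together (30 of 84 pairs with r over 0.1). A replicate block gave 1 call in *sima* (*Rpt4R*) and 1 in *dERR,sima* (*Rpn13R*), both against *w1118* in normoxia.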

Other observations

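The probe set that *Prosalpha1* and *Prosalpha1R* share was set beside the members after its values were seen. It cannot tell the 2 genes apart. Against *w1118* in normoxia it was called lower in *sima* (-0.93, SE 0.18, adjusted p = 0.00352, limma) and *dERR* (-0.97, adjusted p = 0.00213), and it gave -0.24 in *dERR,sima* (adjusted p = 0.424). In hypoxia it was called lower in *sima* (-0.74, adjusted p = 0.00346) and *dERR* (-0.76, adjusted p = 0.00243), and gave -0.27 in *dERR,sima* (adjusted p = 0.29). Of all probe sets, 1.47% (*sima*) and 2.29% (*dERR*) were called in normoxia, and 4.56% and 6.16% in hypoxia. Its mean was 12.34 ± 0.06 in *w1118*, 11.42 ± 0.23 in *sima*, 11.37 ± 0.30 in *dERR* and 12.10 ± 0.16 in *dERR,sima* (SD, n = 3, normoxia).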
